A study of Mus musculus with 6 samples.

Results

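The 10 genes described here are used as markers of the fields of the hippocampus. Prox1, Dsp, C1ql2 and Tdo2 mark the granule cells of the dentate gyrus (DG), Wfs1, Fibcd1 and Pou3f1 the pyramidal cells of CA1, Pcp4 and Amigo2 those of CA2, and Bok those of CA3. They were chosen by name, as a view of which fields the dissected tissue held, out of 37315 genes in the count tables, 26277 of them with a count in 1 or more of the libraries. Pcp4 was selected on its CPM in WT and Fto Tg, where it was among the largest rises. The Fto pair is therefore described below without a test.

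The hippocampus is built as a chain of fields. Granule cells of the DG send mossy fibers to the pyramidal cells of CA3, CA3 projects to CA1, and CA2 is a small field between them. Each field has principal neurons with their own set of genes, so that in bulk tissue the levels of such genes reflect both how much of a field was dissected and how much RNA its cells made. In bulk RNA, fewer cells of a type and less RNA per cell cannot be told apart.

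All 6 libraries came from hippocampi of C57BL/6J mice aged 4 weeks, with 1 library per group, and whether several mice were pooled was not given. The groups were Prrc2a f/f with both alleles floxed (the control of the Nestin-Cre experiment, called f/f-N below), Prrc2a f/f;Nestin-Cre, a further Prrc2a f/f control from the Olig2-Cre experiment (f/f-O), Prrc2a f/f;Olig2-Cre, WT, and Fto Tg, which carries a lentiviral Fto transgene. Nestin-Cre acts in neural progenitors and thus in the neurons and glia that descend from them, whereas Olig2-Cre acts in cells of the oligodendroglial lineage. The field markers are used here as genes of neurons, and whether other cells contributed to their counts was not tested. Prrc2a recognizes N6-methyladenosine (m6A), a methyl mark on RNA, and Fto erases the mark.

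Total counts were 18616540 to 35482589 per library, and 3 counts, taken as the smallest detectable amount, equaled 0.0845 to 0.161 CPM (counts scaled to a library total of 1000000). Prrc2a was 434 CPM in f/f-N and 184 CPM with Nestin-Cre, 389 and 346 CPM in the Olig2-Cre pair, and 351 and 334 CPM in WT and Fto Tg. Fto was 354 CPM in Fto Tg and 136 to 164 CPM elsewhere. The Nestin-Cre library stood apart, since mitochondrial genes took 26.2% of its counts against 7.97% to 8.86% in the other 5 libraries, and the median log2 ratio of all genes to its f/f control was -0.72. Log2 ratios of the 10 markers in this library are therefore also given below relative to that median. The Prrc2a values are given as CPM only. Intervals in brackets are 95% intervals for counting error only, and with 1 library per group no difference within a pair could be set against replicates.

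All 10 markers were detected in all 6 libraries. To order them, levels were divided by the summed exon length and given as CPM per kilobase (RPKM) over the 3 control libraries (both f/f and WT). Wfs1 was the highest at 46.6 ± 4.50 RPKM (SD, n = 3), followed by Fibcd1 at 25.1 ± 3.38, Bok at 20.7 ± 1.73, C1ql2 at 19.7 ± 4.30 and Pou3f1 at 18.3 ± 2.62 RPKM. Prox1 had 13.2 ± 0.665 RPKM, Pcp4 9.19 ± 2.54, Amigo2 7.39 ± 1.61, Dsp 4.53 ± 0.348 and Tdo2 1.81 ± 0.110 RPKM (SD, n = 3 for each). The ranges of the controls overlapped between each neighbor from Fibcd1 to Pou3f1 and between Pcp4 and Amigo2, so these orders were not resolved. The other neighbors in this order did not overlap.

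The markers differed in how much they varied among the 3 controls, before any deletion or transgene was considered. Prox1, Tdo2, Dsp, Bok and Wfs1 had coefficients of variation of 5.03%, 6.10%, 7.69%, 8.38% and 9.67%. Fibcd1 and Pou3f1 had 13.5% and 14.3%, and Amigo2, C1ql2 and Pcp4 had 21.8%, 21.9% and 27.6%. The highest control exceeded the lowest 1.10-fold for Prox1 and 1.77-fold for Pcp4. The WT library, on which Pcp4 was chosen, was its lowest control, and its f/f libraries differed 1.15-fold.

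**Figure D1:**
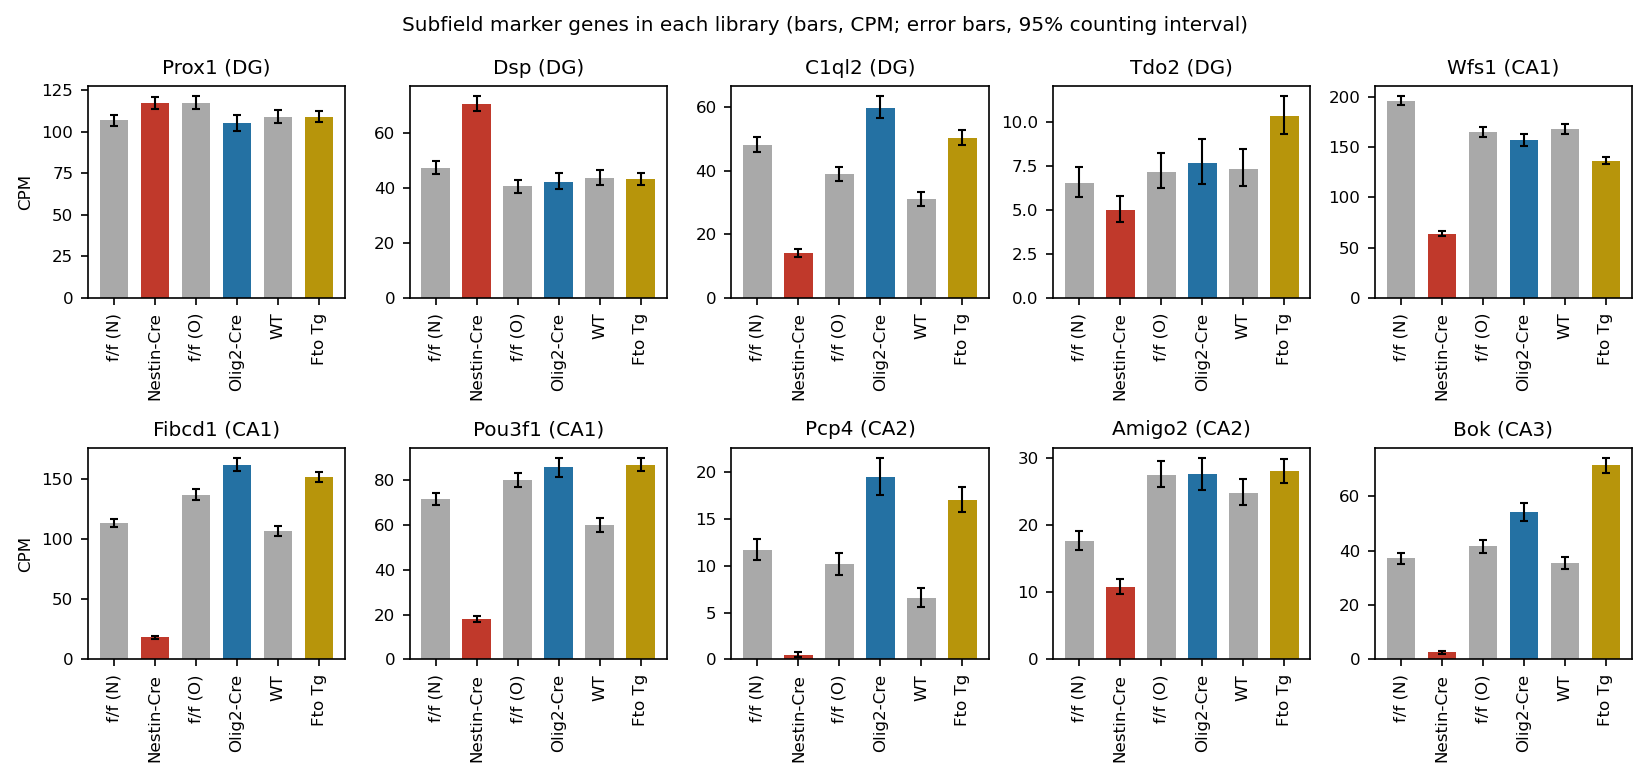
Level of each of the 10 markers in each of the 6 libraries, as CPM on axes that start at 0, with control libraries in grey, f/f;Nestin-Cre in red, f/f;Olig2-Cre in blue and Fto Tg in yellow. f/f (N) is f/f-N and f/f (O) is f/f-O, and error bars are 95% counting intervals. Prox1 lay between 105 and 117 CPM throughout, whereas Pcp4 and Bok were at 0.489 and 2.68 CPM in the Nestin-Cre library.

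Among the DG markers, Prox1, a homeobox transcription factor that specifies and maintains granule cells, was the most even gene of the list. The gene lies on the minus strand of chromosome 1 (190118035 to 190170714, GRCm38). It had 107 CPM (103 to 110.1) in f/f-N and 117 CPM (114 to 121) with Nestin-Cre, 117 CPM (113 to 121) in f/f-O and 105 CPM (100.4 to 109.7) with Olig2-Cre, and 109 CPM in both WT (105 to 113) and Fto Tg (106 to 112). The highest library exceeded the lowest 1.12-fold, and no pair was called different. Relative to the median of all genes, however, Prox1 was 0.85 higher in log2 terms in the Nestin-Cre pair, and it was called higher there with TMM scaling (0.82), DESeq2 size factors (0.85), totals without mitochondrial genes (0.46) and correction for GC content and length (0.41). In the latter, called the correction below, the median ratio of genes of like GC content and then of like exon length was subtracted.

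Dsp encodes desmoplakin, which ties intermediate filaments to desmosomes and is enriched in granule cells (chromosome 13, 38151294 to 38198577, plus strand). It was 47.2 CPM (44.999 to 49.5) in f/f-N and 70.4 CPM (67.7 to 73.2) with Nestin-Cre, a log2 ratio of 0.58 that was called higher. With f/f-O and Olig2-Cre it was 40.5 CPM (38.2 to 42.9) and 42.2 CPM (39.4 to 45.3), and in WT and Fto Tg 43.7 CPM (41.1 to 46.3) and 43.2 CPM (41.04 to 45.4). Outside the Nestin-Cre library its levels thus spanned 1.17-fold.

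C1ql2 encodes a secreted C1q-like protein of mossy fiber synapses (chromosome 1, 120340582 to 120343174, plus strand). Its level was 48.2 CPM (46.0 to 50.5) in f/f-N and 14.1 CPM (12.9 to 15.4) with Nestin-Cre, 38.9 CPM (36.7 to 41.3) in f/f-O and 59.8 CPM (56.4 to 63.4) with Olig2-Cre, and 31.0 CPM (28.9 to 33.2) in WT against 50.2 CPM (47.9 to 52.6) in Fto Tg. In the Nestin-Cre pair the log2 ratio of -1.77 was called lower, whereas after the correction it was 0.34. The log2 ratio was 0.62 in the Olig2-Cre pair, called higher, and 0.70 in the Fto pair. Fto Tg lay only just above f/f-N, and the log2 ratio against that library was 0.06.

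Tdo2 encodes tryptophan dioxygenase, which opens the kynurenine pathway and is found in mature granule cells (chromosome 3, 81957090 to 81976202, minus strand). It was the lowest DG marker, with 6.54 CPM (5.75 to 7.44) in f/f-N and 5.01 CPM (4.32 to 5.81) with Nestin-Cre, 7.20 CPM (6.29 to 8.24) in f/f-O and 7.68 CPM (6.52 to 9.05) with Olig2-Cre, and 7.34 CPM (6.36 to 8.48) in WT against 10.4 CPM (9.36 to 11.5) in Fto Tg. The intervals of the Nestin-Cre pair touched, as did those of the Olig2-Cre pair, and neither pair was called. On the log2 scale the Nestin-Cre pair gave -0.38, but 0.30 with TMM scaling. Fto Tg was the highest library, 0.50 above WT in log2 terms.

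Among the CA1 markers, Wfs1, which encodes the endoplasmic reticulum protein wolframin (chromosome 5, 36966104 to 36989205, minus strand), was the most abundant. It had 196 CPM (191 to 200.6) in f/f-N and 64.0 CPM (61.3 to 66.7) with Nestin-Cre, 165 CPM (160.3 to 169.6) in f/f-O and 157 CPM (151 to 163) with Olig2-Cre, and 168 CPM (163 to 173) in WT against 137 CPM (133 to 141) in Fto Tg. It was the only one of the 10 that was lower in Fto Tg than in all 3 controls, with a log2 ratio to WT of -0.30. In the Nestin-Cre pair its log2 ratio was -1.62 and called lower, but after the correction it was -0.04 and not called.

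Fibcd1 encodes a transmembrane receptor that binds acetylated sugars such as chitin (chromosome 2, 31813290 to 31846005, minus strand). It was 114 CPM (110.1 to 117) in f/f-N and 18.4 CPM (17.0 to 19.9) with Nestin-Cre, a log2 ratio of -2.63. The corrected ratio was -1.08, and both were called lower. With 137 CPM (133 to 142) in f/f-O and 162 CPM (156 to 168) with Olig2-Cre it was not called in that pair, as the fold of 1.18 was under the threshold of 1.2. WT had 107 CPM (103 to 111) and Fto Tg 152 CPM (148 to 156), a log2 ratio of 0.51. WT was the lowest control, and Fto Tg gave 0.42 against f/f-N and 0.14 against f/f-O, the latter under the fold of 1.2.

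Pou3f1 encodes a POU-domain transcription factor of CA1 neurons that is also known from myelinating Schwann cells (chromosome 4, 124656807 to 124660655, plus strand). Its level was 71.4 CPM (68.7 to 74.3) in f/f-N and 17.9 CPM (16.5 to 19.3) with Nestin-Cre. The log2 ratio of -2.00 was called lower, but the corrected ratio was -0.05 and was not. It was 79.7 CPM (76.5 to 83.04) and 85.4 CPM (81.3 to 89.7) in the Olig2-Cre pair, whose intervals overlapped, and 59.7 CPM (56.7 to 62.8) in WT against 86.6 CPM (83.6 to 89.8) in Fto Tg. Wfs1 and Pou3f1 therefore lay on opposite sides of WT in Fto Tg although both mark CA1.

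Pcp4, a small calmodulin-binding protein used to outline CA2 (chromosome 16, 96467606 to 96525793, plus strand), varied most. It had 11.6 CPM (10.54 to 12.8) in f/f-N and 0.489 CPM (0.305 to 0.783) with Nestin-Cre, where 17 reads were counted. In the Olig2-Cre pair it was 10.1 CPM (9.04 to 11.4) and 19.4 CPM (17.5 to 21.5), and in the Fto pair 6.55 CPM (5.62 to 7.63) and 17.0 CPM (15.7 to 18.4). The highest library exceeded the lowest 39.6-fold over all 6 libraries and 2.96-fold without the Nestin-Cre library. The log2 ratio was -4.53 in the Nestin-Cre pair, called lower, and 0.94 in the Olig2-Cre pair, called higher. The log2 ratio of 1.37 in the Fto pair is the value for which Pcp4 was listed. WT was the lowest of the 3 controls, and Fto Tg against each f/f library gave 0.55 and 0.74.

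Amigo2, a leucine-rich repeat adhesion protein of CA2 neurons (chromosome 15, 97244125 to 97247287, minus strand), had another pattern than Pcp4. It was 17.7 CPM (16.4 to 19.1) in f/f-N and 10.8 CPM (9.80 to 12.0) with Nestin-Cre, 27.6 CPM in both f/f-O (25.7 to 29.5) and f/f;Olig2-Cre (25.3 to 30.1), and 24.8 CPM (23.0 to 26.9) in WT against 28.0 CPM (26.3 to 29.8) in Fto Tg. At -0.71 in log2 terms it was called lower with Nestin-Cre, but it equaled the median of all genes (difference 0.01) and was -0.02 and not called with TMM scaling. The difference between the f/f libraries (log2 ratio 0.64) was nearly as large as that of the Nestin-Cre pair.

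Bok encodes a relative of the Bcl2 regulators of apoptosis that is high in CA3 (chromosome 1, 93685660 to 93695764, plus strand). It was 37.3 CPM (35.3 to 39.3) in f/f-N and 2.68 CPM (2.18 to 3.28) with Nestin-Cre, 41.6 CPM (39.3 to 44.0) in f/f-O and 54.1 CPM (50.9 to 57.6) with Olig2-Cre, and 35.4 CPM (33.1 to 37.8) in WT against 71.4 CPM (68.7 to 74.3) in Fto Tg. The log2 ratio was -3.79 in the Nestin-Cre pair, called lower, and 0.38 in the Olig2-Cre pair, called higher. In the Fto pair it was 1.01, and Fto Tg lay 0.94 and 0.78 above the f/f libraries, while the 3 controls spanned 1.18-fold. After the correction the log2 ratio was -1.66 in the Nestin-Cre pair, 0.16 and not called in the Olig2-Cre pair, and 0.72 in the Fto pair.

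**Figure D2:**
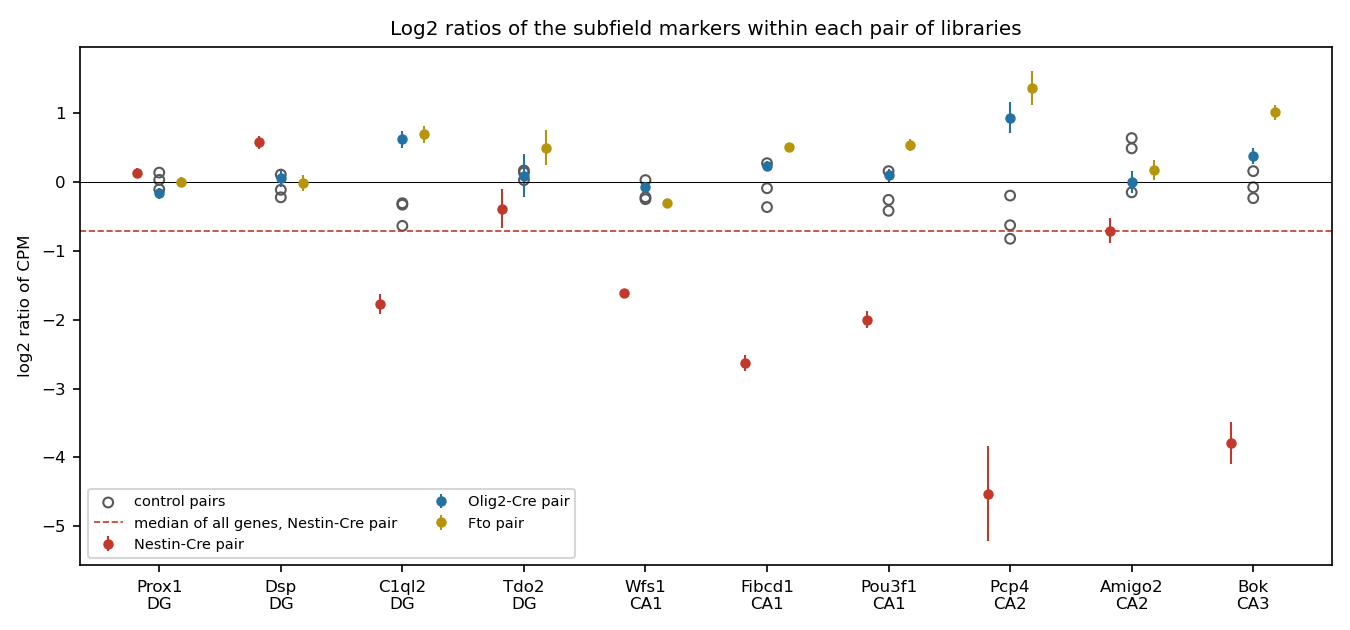
Log2 ratio of CPM for each marker in the Nestin-Cre, Olig2-Cre and Fto pairs (altered library over its control, filled points, bars show 95% counting intervals) and in the 3 pairs of control libraries (open circles). In the Nestin-Cre pair the markers ran from -4.53 (Pcp4) to 0.58 (Dsp) around the median of all genes at -0.72 (dashed line), in the Olig2-Cre and Fto pairs from -0.30 to 1.37, and in the control pairs Pcp4 was as low as -0.82.

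To count the markers that differed within a pair, the read test of the study (MARS of DEGseq) was run over all genes, with a gene called at a false discovery rate (FDR) under 0.001 and a fold of at least 1.2. In the Nestin-Cre pair 7 of 10 markers were called lower and 1 (Dsp) higher, where 53.4% of all genes were called lower and 11.5% higher. The median log2 ratio of the 10 was -1.69, against -0.72 for all genes, and -0.04 after the correction. With that correction 3 markers were called higher (Prox1, Dsp and C1ql2) and 3 lower (Fibcd1, Pcp4 and Bok), close to the 27.9% and 26.8% of all genes called higher and lower with it. With the f/f library of the other experiment as the control, 8 were called lower, Tdo2 among them, and 1 higher, where 53.9% of all genes were called lower and 11.1% higher. In the Nestin-Cre pair, on the scale of library totals, the markers of DG thus went apart. Those of CA1, CA2 and CA3 were called lower, as were 53.4% of all genes. After the correction Wfs1, Pou3f1 and Amigo2 were not called. Relative to the median of all genes, Dsp was at 1.29, Prox1 at 0.85, Tdo2 at 0.33 and Amigo2 at 0.01 in log2 terms. Wfs1 was at -0.90, C1ql2 at -1.05, Pou3f1 at -1.28, Fibcd1 at -1.91, Bok at -3.08 and Pcp4 at -3.81.

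In the Olig2-Cre pair 3 of 10 markers were called higher, namely C1ql2, Pcp4 and Bok, and none lower, where 4.95% of all genes were called higher and 6.91% lower. The median log2 ratio of the 10 was 0.10, against -0.003 for all genes. Against f/f-N, 5 were called higher, with Fibcd1 and Amigo2 added, and Wfs1 was called lower, where the shares of all genes also rose, to 8.98% higher and 10.9% lower. An exact test that took its dispersion from the controls called none of them in the Olig2-Cre pair. That test called 23 of the 17742 genes with at least 10 counts in the pair.

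In the Fto pair 6 of 10 markers were higher by at least 1.2-fold (C1ql2, Tdo2, Fibcd1, Pou3f1, Pcp4 and Bok) and 1 was lower (Wfs1), where 19.0% of all genes were higher and 22.1% lower by that fold. The median of the 10 was 0.50, against -0.01 for all genes. Since the list includes a gene picked for its rise in this pair, nothing is read from these counts. With f/f-O in place of WT, 4 were higher and 1 lower, where 21.1% and 25.1% of all genes were.

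Pairs of control libraries showed what the same test gave with no deletion or transgene. Between the f/f libraries 3 markers were called (C1ql2 lower and Fibcd1 and Amigo2 higher in f/f-O), where 13.1% of all genes were called. WT differed from f/f-N in 3 markers (C1ql2 and Pcp4 lower, Amigo2 higher), where 17.3% of all genes were called. It differed from f/f-O in 4 (C1ql2, Fibcd1, Pou3f1 and Pcp4, all lower), where 7.20% were called. Since the WT value of Pcp4 was among those that led to its choice, the counts were also taken over the other 9 markers, and were then 3, 2 and 3 in the control pairs and 2 in the Olig2-Cre pair. C1ql2 was called in all 3 control pairs.

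Set against the range of the 3 controls in CPM, the Nestin-Cre library was above it for 1 marker (Dsp) and below it for 8, all but Prox1 and Dsp, where 17.7% and 66.9% of all genes lay above and below. The Olig2-Cre library was above the controls for 7 markers and below for 2 (Prox1 and Wfs1), with 28.3% and 30.2% of all genes. Fto Tg was above for 7 and below for 1 (Wfs1), with 27.7% and 29.4% of all genes. Pcp4 was among these 7 and had been picked for its rise in Fto Tg over WT, so nothing is read from the count for Fto Tg. Some of the markers counted as above were close to the controls. Amigo2 exceeded the highest control by 0.003 in log2 terms with Olig2-Cre and by 0.02 in Fto Tg, and C1ql2 in Fto Tg by 0.06. For Tdo2 and Pou3f1 with Olig2-Cre the intervals overlapped that of the highest control, at 7.68 against 7.34 CPM and 85.4 against 79.7 CPM. These comparisons share the 3 controls.

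Each Cre library was next compared with the 3 controls by the quasi-likelihood test of edgeR, in which the single Cre library is assumed to vary like the controls. With TMM scaling, 8 of 10 markers were called at an FDR of 0.05 in the Nestin-Cre library, where 47.7% of all genes were called. Dsp (log2 ratio 1.39, adjusted p = 0.000191) and Prox1 (0.78, adjusted p = 0.00160) rose. Bok (-3.13, adjusted p = 4.4e-05), Pcp4 (-3.57, adjusted p = 0.000660), Fibcd1 (-2.00, adjusted p = 0.000205), Pou3f1 (-1.28, adjusted p = 0.00142), Wfs1 (-0.76, adjusted p = 0.00499) and C1ql2 (-0.78, adjusted p = 0.0326) fell. Tdo2 (0.21, adjusted p = 0.403) and Amigo2 (-0.40, adjusted p = 0.221) were not called. Scaling by library totals gave Prox1 a log2 ratio of 0.08 that was not called and Amigo2 one of -1.10 that was, and without f/f-N Amigo2 was -0.58 and called.

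For the Olig2-Cre library the same fit called 0 of 10 markers, where 0.00% of all genes were called. Among the 18190 genes tested, 1497 had an unadjusted p under 0.05, and DESeq2 called 40 genes, none of them a marker. The largest log2 ratios were those of Pcp4 (1.04), C1ql2 (0.60), Bok (0.51) and Fibcd1 (0.45), each with an adjusted p = 0.601. The read test, which holds no spread between mice, had called the first 3 of these. The WT value of Pcp4, a control value in the fits of both Cre libraries, was among those that led to its choice. Without WT the log2 ratio of Pcp4 was 0.84 with Olig2-Cre and -3.77 with Nestin-Cre. Taking both Cre libraries against both f/f libraries, edgeR called 0 markers and 0.00% of all genes, with 143 of 16921 genes at an unadjusted p under 0.05 and 1 called by DESeq2. The Cre libraries lay on opposite sides of the controls for Pcp4, at 0.489 and 19.4 CPM. Without the Olig2-Cre library 8 markers and 47.8% of all genes were called.

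Since markers of 1 field are taken to share their cells, the markers of each field were also divided by each other within a library. These ratios do not depend on scaling, but they were not corrected for GC content and length. C1ql2 over Prox1 was 0.452 (0.427 to 0.478) in f/f-N and 0.120 (0.110 to 0.132) with Nestin-Cre, 0.332 (0.310 to 0.355) in f/f-O and 0.570 (0.529 to 0.613) with Olig2-Cre, and 0.284 (0.262 to 0.308) in WT against 0.461 (0.435 to 0.488) in Fto Tg. This ratio differed between controls as well, and f/f-N and Fto Tg overlapped. Dsp over Prox1 was 0.345 to 0.443 in 5 libraries and 0.6002 (0.571 to 0.631) with Nestin-Cre. Tdo2 over Prox1 was 0.0427 (0.0367 to 0.0497) with Nestin-Cre, 0.0952 (0.0855 to 0.106) in Fto Tg and 0.0613 to 0.0732 in the other 4 libraries. In the Nestin-Cre pair the corrected log2 ratios were 0.41 for Prox1, 0.34 for C1ql2, 1.25 for Dsp and -0.13 for Tdo2. After the correction C1ql2 and Prox1 were thus alike in that pair.

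In CA1, Fibcd1 over Wfs1 was 0.579 (0.557 to 0.602), 0.832 (0.798 to 0.868) and 0.634 (0.604 to 0.666) in the controls f/f-N, f/f-O and WT. It was 0.287 (0.263 to 0.314) with Nestin-Cre, 1.03 (0.981 to 1.09) with Olig2-Cre and 1.11 (1.07 to 1.15) in Fto Tg. Pou3f1 over Wfs1 was 0.279 (0.256 to 0.305) with Nestin-Cre, 0.544 (0.512 to 0.578) with Olig2-Cre and 0.634 (0.606 to 0.664) in Fto Tg, against 0.355 to 0.483 in the controls. For both ratios the 3 altered libraries thus lay outside the range of the controls, below it with Nestin-Cre and above it in the others. In the Nestin-Cre pair the corrected log2 ratios were -0.04 for Wfs1, -1.08 for Fibcd1 and -0.05 for Pou3f1.

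In CA2, Pcp4 over Amigo2 was 0.0451 (0.0277 to 0.0733) with Nestin-Cre and 0.264 to 0.656 in the controls, while the values of 0.702 (0.614 to 0.804) with Olig2-Cre and 0.605 (0.547 to 0.670) in Fto Tg had intervals that overlapped that of the highest control. Between fields, Wfs1 over Prox1, a CA1 gene over a DG gene, was 1.41 to 1.84 in the controls, 1.496 (1.41 to 1.58) with Olig2-Cre, 1.25 (1.201 to 1.31) in Fto Tg and 0.545 (0.518 to 0.574) with Nestin-Cre. Bok over Prox1, a CA3 gene over a DG gene, was 0.324 to 0.354 in the controls and was 0.516 (0.478 to 0.557) with Olig2-Cre, 0.655 (0.623 to 0.689) in Fto Tg and 0.0228 (0.0186 to 0.0280) with Nestin-Cre. The other CA1 markers went the other way in Fto Tg, where Fibcd1 over Prox1 was 1.39 (1.33 to 1.45) against 0.978 to 1.17 in the controls and Pou3f1 over Prox1 0.795 (0.758 to 0.834) against 0.547 to 0.680. Both ratios were also above the controls with Olig2-Cre, at 1.54 (1.46 to 1.63) and 0.814 (0.762 to 0.869). With Nestin-Cre both were below the controls, at 0.157 (0.144 to 0.170) and 0.152 (0.140 to 0.166). The Fto Tg library was thus outside the controls on different sides for different CA1 markers, and Bok is a single gene of CA3.

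**Figure D3:**
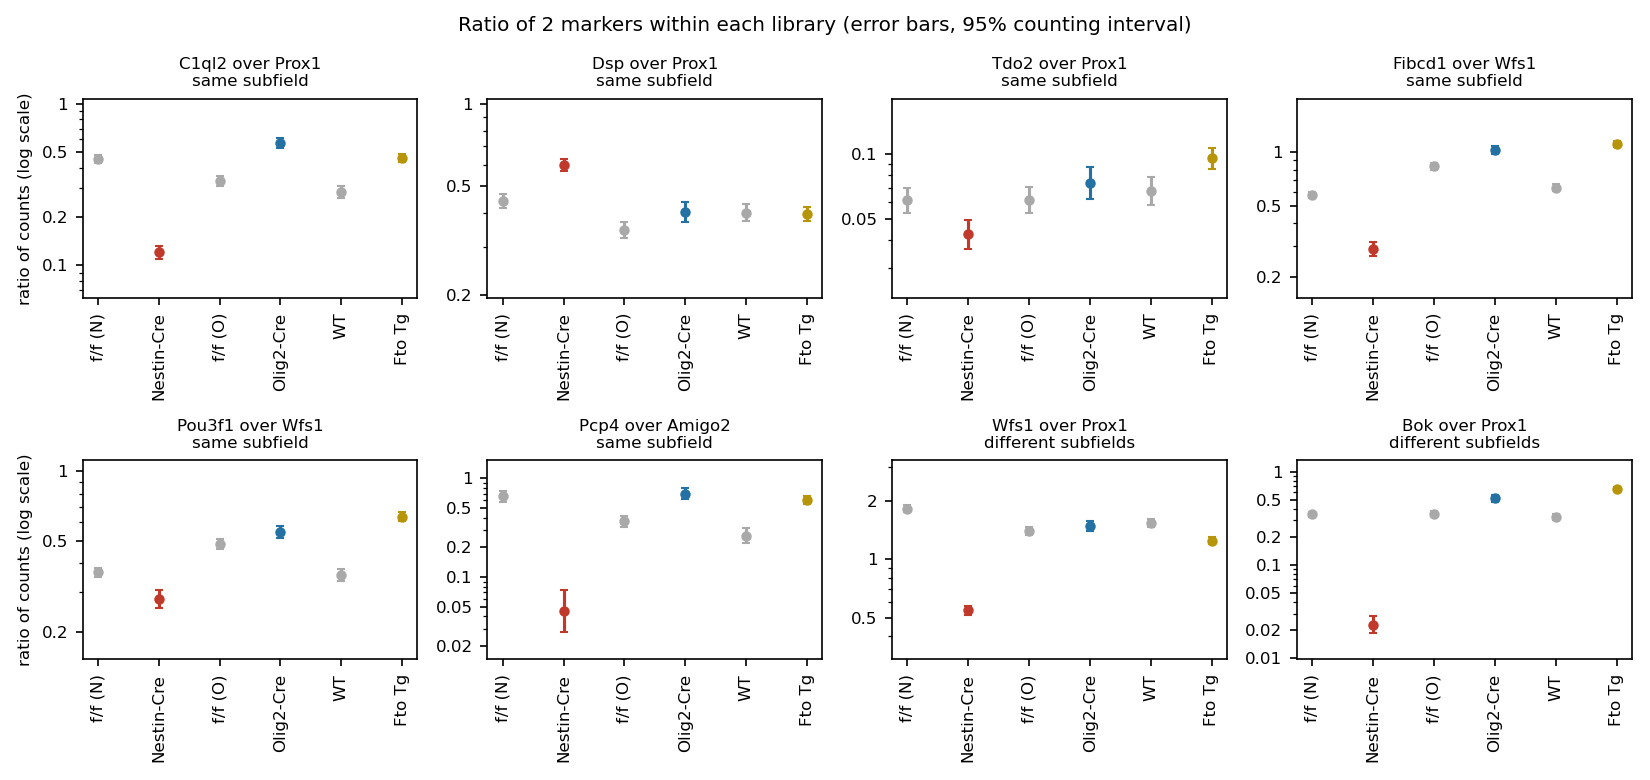
Ratio of the counts of a pair of markers within each library on a log axis, with 95% counting intervals, for 6 pairs from the same field and for Wfs1 over Prox1 and Bok over Prox1 from different fields. Grey points are controls, and the Nestin-Cre library (red) lies outside the controls in all 8 panels. The ratios are not corrected for GC content or length.

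The markers differ in transcript length and base composition. Exon length ran from 1026 bases (Pcp4), 1840 (Bok) and 2000 (C1ql2) over 3163 (Amigo2), 3787 (Wfs1), 3849 (Pou3f1), 3881 (Tdo2) and 4751 (Fibcd1) to 8390 (Prox1) and 9659 bases (Dsp). Over the 10 markers, the rank correlation of the log2 ratio with exon length was 0.73 for the Nestin-Cre, -0.62 for the Olig2-Cre and -0.70 for the Fto pair, and with GC content -0.45, 0.39 and 0.32, as a description across genes of shared libraries. Over all genes with at least 100 counts in the pair it was 0.28, -0.45 and -0.49 with exon length and -0.43, 0.33 and 0.36 with GC content. Pcp4, the shortest marker, was picked for its rise in the Fto pair. Nothing is therefore read from the marker correlations of that pair. The 3 shortest markers, Pcp4, Bok and C1ql2, were the 3 called higher in the Olig2-Cre pair, and the longest, Prox1 and Dsp, were the highest in the Nestin-Cre pair.

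Genes with at least 100 counts in the pair and exons shorter than 2 kb showed medians of -1.30, 0.19 and 0.23 for the Nestin-Cre, Olig2-Cre and Fto pairs (log2 ratios), and genes over 6 kb -0.42, -0.12 and -0.14. The short markers were farther from 0 than these medians, for instance Bok at -3.79, 0.38 and 1.01. Pcp4 was at -4.53 and 0.94 in the Nestin-Cre and Olig2-Cre pairs. Its 1.37 in the Fto pair is the value for which it was picked. The GC content was 39.6% (Tdo2), 45.3% (Prox1), 47.1% (Pcp4), 48.1% (Amigo2), 51.8% (Dsp), 57.8% (Wfs1), 59.4% (Fibcd1), 61.0% (Bok), 63.4% (C1ql2) and 63.9% (Pou3f1). With Nestin-Cre, genes over 60% GC lay at a median of -1.89 and genes under 45% at -0.24. Pcp4 stayed low after correction for both properties (-3.94) although its GC content is moderate. The part of length and base composition in the differences between markers was not tested beyond this correction.

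**Figure D4:**
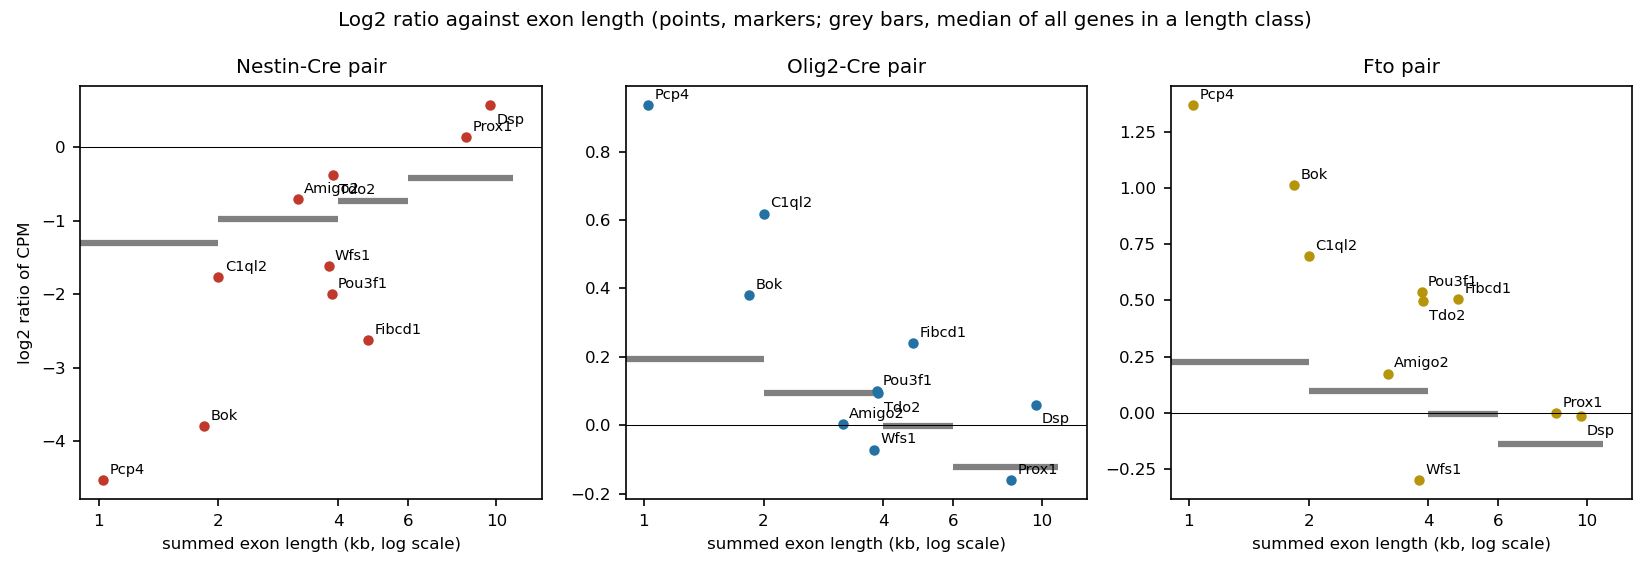
Log2 ratio of CPM of each marker against its summed exon length (log axis, kb) in the Nestin-Cre, Olig2-Cre and Fto pairs, with the median of all genes in 4 length classes as grey bars. Pcp4, Bok and C1ql2, at 1026 to 2000 bases, lie at -4.53, -3.79 and -1.77 in the Nestin-Cre pair, where the longer Fibcd1 and Pou3f1 are below C1ql2, and are the highest 3 in the other pairs. Pcp4 was picked for its rise in the Fto pair.

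Whether other genes of the same fields followed the markers was examined with wider lists of field-enriched genes. Of 10 further DG genes, 3 were called higher and 4 lower in the Nestin-Cre pair. Their median log2 ratio was -0.12, above that of all genes (-0.72), and 0.34 after the correction. Sema5a, a semaphorin, was 107 and 154 CPM and called higher, Dock10, an exchange factor for small GTPases, was 94.0 and 93.4 CPM and was not, and Calb1, the calcium buffer calbindin, was 102 and 86.8 CPM and was not called either. The summed level of the list was 460 CPM in the Nestin-Cre library and 456 to 513 CPM in the controls. With Olig2-Cre 1 DG gene was called lower (Dock10, 97.3 and 77.2 CPM) and none higher, and in the Fto pair 4 were past the fold upwards and none downwards. Their medians were 0.07 and 0.13.

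Of 8 further CA1 genes, 1 was called higher and 5 lower in the Nestin-Cre pair. Their median log2 ratio was -0.67, close to that of all genes (-0.72), and -0.44 after the correction. Mpped1, a phosphoesterase-domain protein, was 191 and 71.7 CPM and called lower, Nov, a secreted CCN-family protein, was 143 and 57.3 CPM and called lower, and Etv1, an ETS transcription factor, was 104 and 200 CPM and called higher. Of the same 8 genes 5 were called lower and none higher in the Olig2-Cre pair (median -0.36), Etv1 among them at 103 and 79.1 CPM, whereas none of the 3 CA1 markers was called. In the Fto pair 1 was higher and 2 lower by the fold (median -0.24). Wfs1 lay on the side of this median in both pairs, and Fibcd1 and Pou3f1 on the other.

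Of 7 further CA2 genes, 1 was called higher and 3 lower in the Nestin-Cre pair. Their median log2 ratio was -0.70, close to that of all genes (-0.72), and 0.71 after the correction. In the Olig2-Cre pair 2 were called higher and none lower (median 0.25). Rgs14, a regulator of G protein signaling that is a standard label of CA2, was 62.2 and 19.1 CPM in the Nestin-Cre pair, called lower. Rgs14 was 68.1 and 80.9 CPM in the Olig2-Cre pair, which was not called, and 59.8 CPM in WT and 74.5 CPM in Fto Tg. Necab2, a neuronal calcium-binding protein, was 75.9 and 36.1 CPM in the Nestin-Cre pair and 72.9 and 102 CPM in the Olig2-Cre pair, and was called in both. Stard5, a lipid carrier, was 14.3 to 15.8 CPM in all 6 libraries. None of these genes approached the range of Pcp4, which ran from 0.489 CPM with Nestin-Cre to 19.4 CPM with Olig2-Cre. The Fto pair had 2 genes higher and 2 lower by the fold (median -0.02).

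Of 7 further CA3 genes, 1 was called higher and 5 lower in the Nestin-Cre pair. Their median log2 ratio was -0.67, close to that of all genes (-0.72), and 0.13 after the correction. In the Olig2-Cre pair 1 was called higher and 1 lower (median -0.25). Grik4, a kainate receptor subunit, was 53.2 and 33.5 CPM in the Nestin-Cre pair and 52.3 and 63.8 CPM in the Olig2-Cre pair, and was called in both. Cpne4, a copine, was 89.8 and 71.4 CPM in the Nestin-Cre pair, called lower, and Pvrl3, a nectin adhesion protein, was 37.4 and 38.9 CPM and not called. In the Fto pair none was higher and 2 were lower by the fold, with a median of 0.04. Bok, at 1.01 in the Fto pair and -3.79 in the Nestin-Cre pair, lay outside the range of the whole list in both (-0.36 to 0.17 and -1.71 to 0.90).

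**Figure D5:**
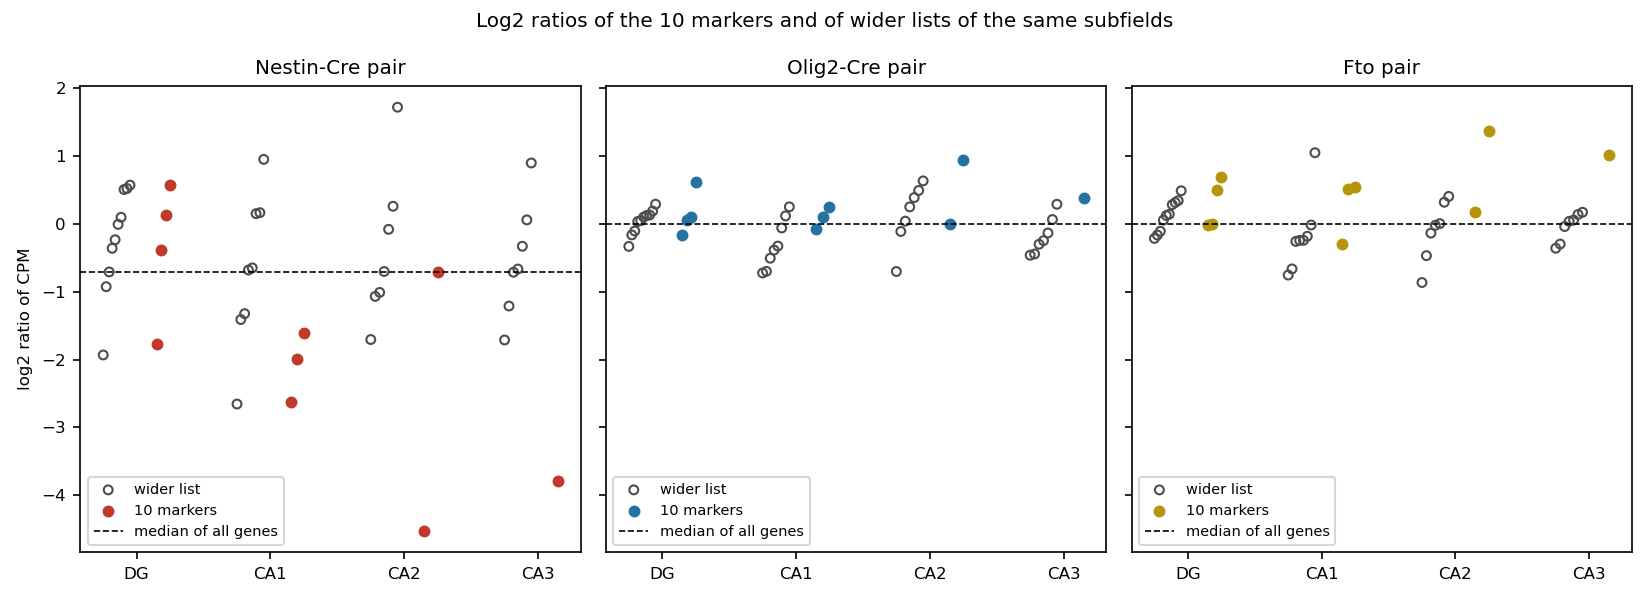
Log2 ratios of CPM in the Nestin-Cre, Olig2-Cre and Fto pairs for the 10 markers (filled points) and for the wider lists of 10 DG, 8 CA1, 7 CA2 and 7 CA3 genes (open circles), with the median of all genes as a dashed line. Bok lies outside the wider list of CA3 in the Nestin-Cre, Olig2-Cre and Fto pairs. Pcp4 lies outside that of CA2 in the Nestin-Cre and Olig2-Cre pairs. Its place in the Fto pair follows from its choice for a rise there.

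Markers of other cells and of neighboring tissue were counted in the same libraries, since they bear on what was dissected, and no list had a gene at 0 in all libraries. The lists for neurons in general summed to 9908 CPM with Nestin-Cre, 8766 CPM with Olig2-Cre and 8442 CPM in Fto Tg, and to 8979 to 9588 CPM in the controls. Choroid plexus genes summed to 267 CPM with Nestin-Cre, 3425 CPM with Olig2-Cre, 695 CPM in Fto Tg and 1651 to 2883 CPM in the controls, with 6 of 6 called lower in the Nestin-Cre pair, 3 called higher in the Olig2-Cre pair and 6 lower by the fold in the Fto pair. Oligodendrocyte genes summed to 5089 CPM with Nestin-Cre (9 of 10 called lower), 6134 CPM with Olig2-Cre (6 called lower, 1 higher) and 9971 CPM in Fto Tg (4 higher and 2 lower by the fold), against 7443 to 8572 CPM in the controls. Choroid plexus thus differed more between libraries than any of the 10 markers did outside the Nestin-Cre library.

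Genes of the thalamus summed to 92.8 CPM with Nestin-Cre, 138 CPM with Olig2-Cre, 137 CPM in Fto Tg and 135 to 175 CPM in the controls. Cortical genes summed to 155, 171, 175 and 192 to 223 CPM in the same order, and striatal genes to 57.1, 76.5, 71.5 and 77.4 to 86.2 CPM. Sums for mossy cells of the hilus were 85.2, 99.7, 106 and 73.4 to 93.5 CPM, for the subiculum 120, 80.6, 83.8 and 76.3 to 97.7 CPM, for Cajal-Retzius cells 56.6, 83.4, 69.4 and 84.0 to 109.9 CPM, and for immature granule cells 93.6, 63.9, 77.4 and 62.5 to 80.04 CPM. On the scale of library totals, the sums for thalamus, cortex and striatum were thus not above the controls in any altered library. Single genes were still called higher, 1 each for cortex and striatum with Nestin-Cre and 1 for thalamus with Olig2-Cre. Fto Tg had 1 gene for thalamus and 2 for striatum past the fold upwards against WT. For the Nestin-Cre library the reading depended on the scale. The median log2 ratios of thalamus (-0.38) and cortex (-0.21) genes to f/f-N lay above that of all genes (-0.72). That of striatal genes (-1.11) lay below it. After the correction these medians were 0.02, 0.36 and -0.38 for thalamus, cortex and striatum. The part of the make-up of the dissected tissue in the values of the markers was not tested.

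To see which genes had the most similar pattern, log2 CPM values were centered for each gene, and the root mean square (RMS) difference over the 6 libraries was taken among 11645 genes with a mean of at least 5 CPM. Closest to Prox1 were Sec24b (RMS 0.02), Pum3 (0.03) and Ppfia1 (0.03), and the DG markers Dsp, Tdo2 and C1ql2 came in places 3209, 5133 and 9806. Closest to Wfs1 were Rap1gap2 (0.03), Mcph1 (0.05) and Slc23a2 (0.05), with the CA1 markers Pou3f1 and Fibcd1 in places 6193 and 9684. For Pcp4 the closest gene was Bok (0.35), followed by Scand1 (0.36) and Rabac1 (0.37), with Amigo2 in place 3709. For Bok they were Mcrip1 (0.19), Imp3 (0.20) and Cebpa (0.21), with Pcp4 in place 69 and Fibcd1 in place 255. Markers of 1 field were thus not each other's nearest genes, while Pcp4 and Bok, from different fields, were close.

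Without the Nestin-Cre library other genes took these places. Tbc1d1, Atp1b3 and Slc35f3 were closest to Prox1 and Arhgef11, Sema4g and Rgs20 to Wfs1. Closest to Pcp4 were Fbln5, Tmed1 and Myoc, with C1ql2 in place 5, Bok in place 24 and Amigo2 in place 4816. For Bok, Tdo2 was in place 93 and Pcp4 in place 2826.

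Because Prrc2a and Fto act on m6A, whose consensus includes the letters GGACT, the sense strand of the longest transcript of each marker was searched for them. Fibcd1 held 7 copies, Prox1 6, Dsp and Pou3f1 5 each, Tdo2 and Wfs1 4 each, C1ql2, Amigo2 and Bok 3 each, and Pcp4 0. Thus 9 of 10 markers held the letters, as did 90.9% of 16374 genes with at least 60 counts over the 6 libraries. The longest Pcp4 transcript was 641 bases long, whereas the median of those genes was 3241 bases. A match is a string of letters and does not show that the site is methylated.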

How the data were processed

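RNA-seq libraries were made by the submitters from poly(A) RNA with a TruSeq kit. The authors trimmed the reads, aligned them to mm10 with TopHat2 2.0.9, kept uniquely mapped reads and counted them per Ensembl gene with HTSeq 0.6 (union mode, no strand), so the deposited values were whole-number read counts without normalization. Reads shared by similar genes or lying in overlapping genes were lost. Whether reads were single or paired was not given consistently, and versions are those of the submitters' processing notes.

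Counts were divided by library totals (18616540 to 35482589) and given as CPM with Wilson 95% intervals. The study's read test (MARS of DEGseq) was programmed in Python 3.11.15 on counts plus 0.5, for genes with at least 10 counts in a pair (FDR under 0.001, fold of at least 1.2). It compares libraries, not genotypes. edgeR 4.0.16 (R 4.3.3, TMM, filterByExpr, FDR under 0.05) compared Cre libraries with controls, and DESeq2 1.42.0 was the alternative. Adjusted p-values are Benjamini-Hochberg values over all genes. Exon length, GC content and coordinates came from GENCODE M21 (GRCm38), and the correction for them subtracted medians of 20 bins. Scripts were tested on simulated counts. The members and the wider gene lists were chosen with earlier results of these data known. Named genes were the 10 markers, Prrc2a and Fto, the 3 most similar genes for the first marker of each field, and the 3 most abundant genes of each wider field list. The nearest genes of Bok without the Nestin-Cre library are not reported here.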

Additional observations from a re-analysis of the deposited data

How the results depend on the processing

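Each group had 1 library, so libraries were left out only from the comparisons with 2 or more libraries in an arm, and depth (18616540 counts in the Olig2-Cre library) limited the precision of Tdo2 and Pcp4, the lowest markers. Causes of the changes below were not tested. With each Cre library paired with the f/f library of its own experiment as a block, both Cre against both f/f libraries gave 2 genes called and no marker.

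The number of markers called in the Nestin-Cre pair stayed within 1.5 times of 8 under every alternative run, but the split moved from 1 higher and 7 lower to 2 and 6 with TMM factors and 3 and 3 after correction for GC content and length. That of all genes moved from 2097 higher and 9699 lower to 5167 and 5420 with TMM factors. The exact test that took its dispersion from the controls called 4249 genes in the Nestin-Cre pair (11796 by the read test), 23 genes (2104 by the read test) and 0 markers in the Olig2-Cre pair, and 0 markers in each of the 3 control pairs. In the Olig2-Cre pair the other f/f control gave 6 markers and 3567 genes, and the correction gave 1296 genes. For the Olig2-Cre library against the controls, DESeq2 called 40 genes, no filter on low counts 19, and leaving out a control 3 to 4. For both Cre against both f/f, DESeq2 called 1 gene. Leaving out a library gave 0 to 8 markers and 0 to 8480 genes, the highest when f/f;Olig2-Cre was left out.

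In the Olig2-Cre and Fto pairs, directions turned only where the log2 ratio was near 0. In the Nestin-Cre pair they also turned for C1ql2 (-1.77), Amigo2 (-0.71) and Tdo2 (-0.38). For both Cre against both f/f they turned for Dsp (0.83), Bok (-0.43), Pou3f1 (-0.40), Prox1 (0.40) and Fibcd1 (-0.38), among others. In the Nestin-Cre pair Tdo2 was 0.30 with TMM factors, 0.33 with DESeq2 size factors and 0.30 in the exact test, Amigo2 was 0.0101 with DESeq2 size factors, C1ql2 was 0.34 after the correction, and Prox1 was -0.000249 with the other f/f control. In the Olig2-Cre pair Dsp was -0.16 with the other f/f control, Pou3f1 -0.0557 after the correction, and Amigo2 -0.00904 with TMM factors, -0.00014 with totals without mitochondrial genes and -0.0384 after the correction. In the Fto pair Prox1 was 0.0222 with TMM factors, 0.0312 with DESeq2 size factors, 0.18 after the correction and 0.0308 against f/f-N, and Dsp was 0.00696, 0.0159 and 0.0882 under the same 3 settings and 0.0925 against f/f-O. Against the 3 controls, Tdo2 in the Nestin-Cre library was -0.49 with library totals, and Dsp in the Olig2-Cre library ranged from -0.104 to 0.0113 when a control was left out. For both Cre against both f/f, library totals gave Prox1 -0.0112 and Tdo2 -0.12, and Amigo2 was 0.0306 both by DESeq2 and with its size factors. Leaving out a library moved Prox1 between -0.0895 and 0.771, Dsp between -0.0515 and 1.39, C1ql2 between -0.922 and 0.459, Fibcd1 between -2.07 and 0.375, Pou3f1 between -1.38 and 0.181, Pcp4 between -3.76 and 0.837, Amigo2 between -0.354 and 0.349, and Bok between -3.18 and 0.462. The likeness of patterns without the Nestin-Cre library and the counts without Pcp4 were added after seeing the data.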
